A study of Mus musculus with 4 samples.

Results

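The 40 genes described here act in mitosis, from entry into it through chromosome segregation to cytokinesis. They were chosen by name, with earlier results of these data known, as a list of 40 among the 46517 genes of the deposited expression table. Each of the 40 was found there once. Expression was measured by mRNA sequencing of LSK cells (lineage-negative, Sca-1-positive, c-Kit-positive bone marrow cells, a fraction containing haematopoietic stem cells and multipotent progenitors) from C57BL/6 mice aged 8 to 10 weeks. The groups were Setd2f/f mice with wild-type Setd2 (2 libraries) and Setd2D/D mice with Setd2 knocked out (2 libraries). The means of deletion, the cells it acts in and the number of mice per library are not known here. P-values therefore measure only how far these libraries spread, and that spread may be technical. The title of the study concerns how Setd2, the enzyme behind trimethylation of histone H3 at lysine 36, acts on quiescence and differentiation of these cells.

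Entry into mitosis is driven by the kinase Cdk1 with its cyclin partners. Plk1 and the Aurora kinases then build the spindle, kinetochores tie chromosomes to it, and the spindle checkpoint holds back the anaphase-promoting complex until every chromosome is attached. Quiescent stem cells make little RNA from these genes, which is why they are widely used to read how much of a blood progenitor population is cycling. In RNA from a whole population, fewer dividing cells and less RNA per dividing cell cannot be told apart.

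Mitosis genes share promoter elements with a known place in their control. The CCAAT box, bound by the factor NF-Y, usually lies a short way upstream of the start. The cell cycle genes homology region (CHR) lies close to the start and is bound by MuvB complexes, which repress these genes in resting cells and activate them in G2. Promoters from RefSeq on GRCm38.p6, 250 bases before to 50 after a start, were matched by symbol for 33 of the 40 genes, with 35 starts in all. They were searched on both strands for CCAAT and for the CHR forms TTTGAA and TTCGAA, and 0 CCAAT matches overlapped a CHR match. The stretches that follow are 200 bases before to 30 after the start for 7 of them, written 5′ to 3′ along the gene, with matches on either strand in capitals. They show genes that lay above (Cdk1, Ccnb1, Cenpa, Cenpf), below (Ccnb2, Spc25) or level (Mki67) in the Setd2D/D libraries.
Cdk1 (chr10:69352883-69353112, minus strand): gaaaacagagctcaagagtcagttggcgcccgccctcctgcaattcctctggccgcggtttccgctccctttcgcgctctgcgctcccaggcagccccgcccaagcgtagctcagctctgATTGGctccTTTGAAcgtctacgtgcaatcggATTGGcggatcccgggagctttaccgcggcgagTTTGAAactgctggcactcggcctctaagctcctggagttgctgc
Ccnb1 (chr13:100786457-100786686, minus strand): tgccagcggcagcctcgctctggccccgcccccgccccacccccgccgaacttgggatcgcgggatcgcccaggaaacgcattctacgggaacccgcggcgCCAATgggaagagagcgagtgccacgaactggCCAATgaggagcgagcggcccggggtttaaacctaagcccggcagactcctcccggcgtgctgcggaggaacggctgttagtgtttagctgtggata
Cenpa (chr5:30666686-30666915, plus strand): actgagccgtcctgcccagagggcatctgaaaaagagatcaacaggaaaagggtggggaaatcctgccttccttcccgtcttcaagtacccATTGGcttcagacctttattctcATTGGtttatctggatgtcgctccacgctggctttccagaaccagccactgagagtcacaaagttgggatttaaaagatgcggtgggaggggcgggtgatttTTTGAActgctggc
Cenpf (chr1:189688057-189688286, minus strand): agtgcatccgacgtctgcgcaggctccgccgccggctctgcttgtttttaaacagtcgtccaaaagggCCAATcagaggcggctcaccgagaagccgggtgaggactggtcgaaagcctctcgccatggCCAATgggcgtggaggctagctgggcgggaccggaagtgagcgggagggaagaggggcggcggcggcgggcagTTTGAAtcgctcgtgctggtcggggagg
Ccnb2 (chr9:70421525-70421754, minus strand): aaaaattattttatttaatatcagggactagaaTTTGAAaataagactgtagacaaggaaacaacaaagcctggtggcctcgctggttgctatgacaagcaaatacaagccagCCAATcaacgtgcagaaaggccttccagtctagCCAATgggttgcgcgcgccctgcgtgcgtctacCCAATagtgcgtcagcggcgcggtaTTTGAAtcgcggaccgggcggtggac
Spc25 (chr2:69206184-69206413, minus strand): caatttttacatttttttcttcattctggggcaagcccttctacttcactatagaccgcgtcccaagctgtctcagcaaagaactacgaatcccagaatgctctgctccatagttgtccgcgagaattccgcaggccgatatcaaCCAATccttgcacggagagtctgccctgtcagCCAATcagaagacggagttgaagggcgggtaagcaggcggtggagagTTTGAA
Mki67 (chr7:135716350-135716579, minus strand): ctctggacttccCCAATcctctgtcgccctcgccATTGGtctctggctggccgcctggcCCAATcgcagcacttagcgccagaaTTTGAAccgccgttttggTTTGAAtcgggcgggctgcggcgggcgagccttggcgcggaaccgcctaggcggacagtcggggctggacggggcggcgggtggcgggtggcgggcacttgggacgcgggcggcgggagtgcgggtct

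A CCAAT box was present in 26 of the 35 promoters (74.3%), against 37.4% of all 32851 promoters in the table. At least 2 were present in 18 (51.4%), against 11.5% of all promoters. A CHR was present in 29 of the 35 (82.9%), against 19.2% of all promoters, and 26 (74.3%) had one within 50 bases of the start, against 5.31%. Both elements stood together in 24 (68.6%), against 7.52%. In Cdk1 the CHR nearest to the start began at base -15, counted from the RefSeq start, downstream of CCAAT boxes beginning at -80 and -48. Cenpf had one beginning at base 3, below CCAAT boxes at -132 and -71. Ccnb1 had 2 CCAAT boxes and none of the searched CHR forms in this window. Other genes of mitosis, listed further down, held a CHR in 48 of 102 promoters (47.1%), and DNA replication genes in 6 of 35 (17.1%). The CCAAT box was common in both of these sets. It was present in 61 promoters of the other mitosis genes (59.8%) and in 21 of the DNA replication genes (60%). At least 2 were present in 34 (33.3%) and 13 (37.1%). Among the promoters of genes with both Setd2D/D libraries above both Setd2f/f libraries, 9 of 11 held a CHR, and among those of genes with both below, 3 of 4 did. Split by the sign of the log2 change, 23 of 25 promoters of genes above 0 (92%) and 6 of 10 of genes below 0 (60%) held a CHR, and 21 (84%) and 5 (50%) held a CCAAT box. Genes on either side thus held both elements, including Cdk1, Ccnb2 and Spc25, and these shares were not tested. The split by sign depends on the measure. Birc5, Mad2l1 and Nusap1 were below 0 in this split and held neither element. In the comparison deposited by the authors their log2 fold changes were 0.05, 0.02 and 0.06. Nuf2, also without either element, stayed below 0 there at -0.24, and Cenpf, which held both, was at -0.08.

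**Figure D1:**
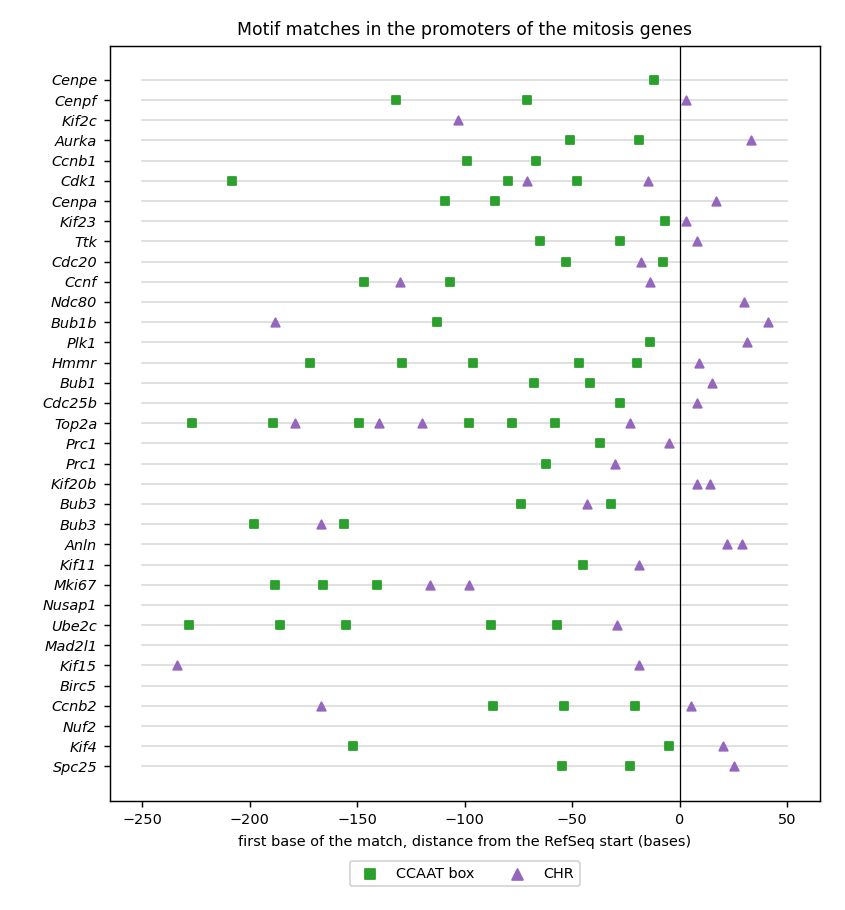
Positions of motif matches in the 35 RefSeq promoters of 33 mitosis genes, as the distance of the first base of each match from the start (x axis, bases). Rows run from the highest to the lowest log2 change in Setd2D/D, squares mark CCAAT boxes and triangles mark the CHR, which sits within 50 bases of the start in 26 promoters.

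Setd2 itself was at 78.9 and 68.0 TPM (a share of a library's transcripts that is corrected for gene length) in Setd2f/f, against 43.4 and 49.5 TPM in the knockout. Both knockout libraries lay below both others (log2 change -0.65, SE 0.15, limma adjusted p = 0.329). The comparison deposited by the authors put this change at -0.73, with an FDR of 5.84e-06. Transcripts lacking only a deleted part would still be counted. By the worth of 1 read in genes with few reads, the libraries ranged in depth from 0.620 (Setd2D/D replicate 1) to 1 (Setd2f/f replicate 2), relative to the latter. Across genes the Setd2f/f libraries correlated at r = 0.96 on the log2 scale and the Setd2D/D libraries at r = 0.91, which lies within the range between genotypes (0.91 to 0.94). Genes are not independent replicates. The gate markers were present, with Kit at 224 and 249 TPM in Setd2f/f and 301 and 285 in Setd2D/D, and Ly6a, which encodes Sca-1, at 128 and 124 TPM against 46.5 and 80.6.

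Changes are given as Setd2D/D minus Setd2f/f on the log2(TPM + 1) scale with the limma standard error (SE). Adjusted p-values are those of limma over the 14755 genes that reached a TPM of 1 in 2 or more libraries. All 40 mitosis genes passed that filter. Their mean levels ran from 17.1 TPM (Cdc25c) to 333 TPM (Top2a), with a median of 69.0 TPM, against 19.3 TPM over all genes tested. The 40 genes together took 3250 and 3130 TPM in Setd2f/f, against 3411 and 3372 TPM in Setd2D/D.

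None of the 40 passed limma at an adjusted p of 0.05 in either direction, where 0.0203% of all genes tested passed as higher and 0.0474% as lower (0.0678% in all). At an unadjusted p under 0.05, 7 of the 40 were higher (4.17% of all genes) and 0 were lower (6.99% of all genes). The 7 were Cdk1, Ccnb1, Cenpa, Cenpe, Cenpf, Kif20a and Kif2c, and their number was 0 without either Setd2f/f library and 1 without Setd2D/D replicate 1. By the authors' deposited table, Kif20a was the 1 gene of the 40 past an FDR of 0.05 as higher (1.51% of the genes in that table) and 0 as lower (1.64%). The median log2 change of the 40 was 0.06, against -0.06 over all genes tested, with 26 above 0 and 14 below. Over all genes 42.1% lay above 0. After rescaling by trimmed means of M values, 31 lay above 0 and 9 below, and the median was 0.12, against -0.0080 over all genes tested on that scale. Both Setd2D/D libraries lay above both Setd2f/f libraries for 13 of the 40 (16.8% of all genes tested) and below them for 6 (27.6% of all genes tested), while the genotypes overlapped for 21. With 2 libraries against 2, an exact permutation test of 1 gene cannot go below p = 0.333.

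**Figure D2:**
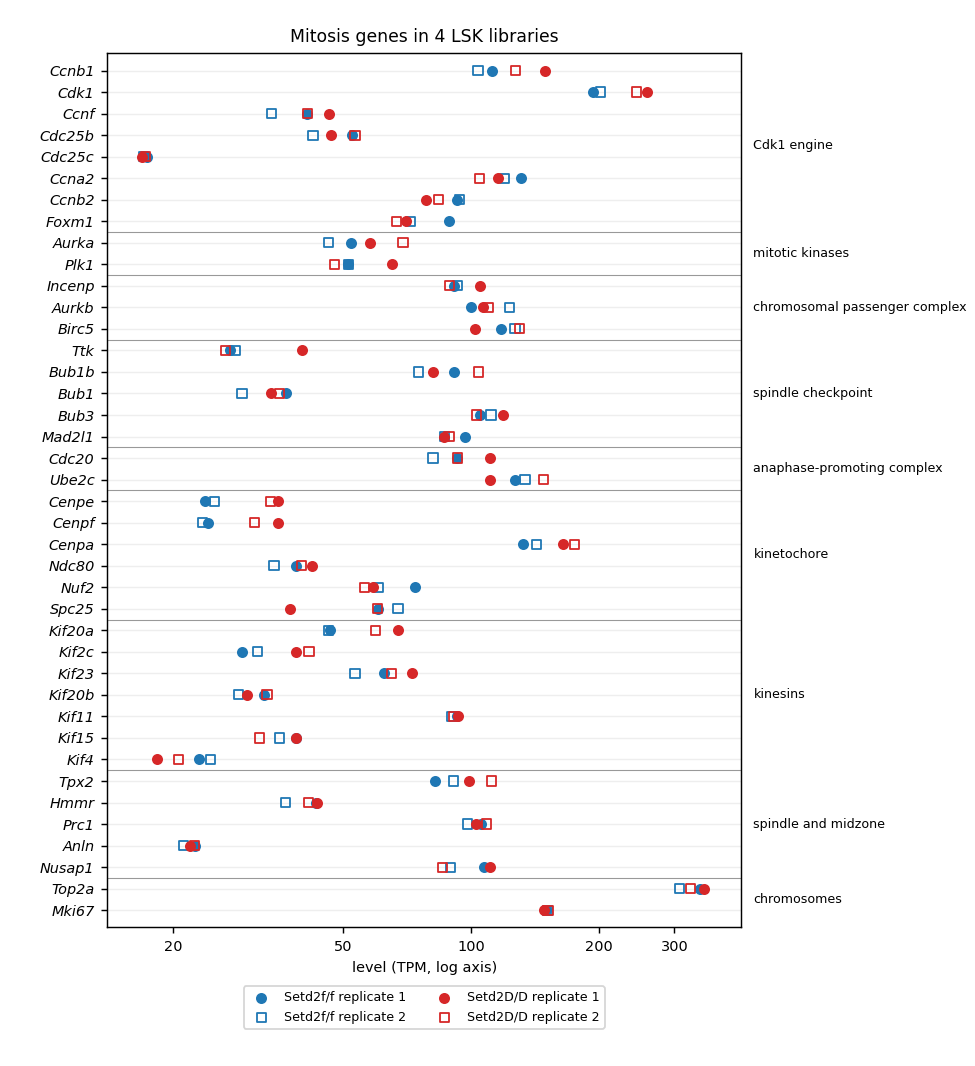
Level of each mitosis gene in the 4 libraries (x axis, TPM on a log axis), grouped by role, with Setd2f/f in blue, Setd2D/D in red, filled circles for replicate 1 and open squares for replicate 2. The red marks of Cdk1, Cenpe, Cenpf, Cenpa, Kif20a and Kif2c lie to the right of both blue marks, while those of Mki67 lie on them.

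Within the group that runs the Cdk1 switch, members stood on opposite sides. Cdk1, the kinase that starts mitosis, was at 193 and 201 TPM in Setd2f/f, against 258 and 244 TPM in Setd2D/D. Both knockout libraries were above both controls, with a log2 change of 0.35 (SE 0.10, limma adjusted p = 0.381). Ccnb1, which encodes the main mitotic cyclin, was at 112 and 104 TPM against 149 and 127 TPM, a log2 change of 0.35 (SE 0.13, limma adjusted p = 0.436). Ccnb2, which encodes another B-type cyclin, was at 92.9 and 94.0 TPM against 78.4 and 83.8 TPM, so that both knockout libraries were below (log2 change -0.20, SE 0.11). Ccna2, the cyclin of S phase and early mitosis, was at 131 and 120 TPM against 116 and 105 TPM, also below (log2 change -0.19, SE 0.12). Foxm1, the transcription factor that turns on many genes of this set in G2, was at 88.6 and 72.1 TPM against 70.5 and 67.0 TPM, a log2 change of -0.21 (SE 0.15). None of these passed limma.

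Ccnf, an F-box protein that targets partners for degradation, was at 41.1 and 34.0 TPM in Setd2f/f, against 46.5 and 41.3 TPM in Setd2D/D, and the lower knockout value barely exceeded the higher control value. Of the phosphatases that remove the inhibitory marks from Cdk1, those among the 40 overlapped between genotypes. Cdc25a, which is not among the 40, had both knockout libraries above. It was at 45.9 and 44.7 TPM in Setd2f/f, against 59.3 and 52.9 TPM in Setd2D/D (log2 change 0.30, SE 0.13, limma adjusted p = 0.484). Cdc25b was at 52.4 and 42.6 TPM against 46.9 and 53.4 TPM. Cdc25c, the lowest of the 40, was at 17.3 and 17.0 TPM against 16.9 and 17.2 TPM. In this group of 8 genes, 3 had both knockout libraries above (16.8% of all genes tested), 3 had both below (27.6% of all genes tested) and 2 overlapped.

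Aurka, the centrosomal Aurora kinase, was at 52.4 and 46.3 TPM in Setd2f/f, against 57.9 and 69.2 TPM in Setd2D/D (log2 change 0.36, SE 0.15, limma adjusted p = 0.479). Tpx2, which binds the Aurka kinase and brings it to the spindle, was at 82.4 and 91.0 TPM against 99.1 and 112 TPM (log2 change 0.28, SE 0.13, limma adjusted p = 0.486). For this pair both knockout libraries lay above both controls. Plk1, the polo-like kinase of mitotic entry, was at 51.6 and 51.6 TPM against 65.2 and 47.8 TPM, with the knockout libraries on either side of the controls.

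The chromosomal passenger complex, which corrects faulty attachments and guides cytokinesis, overlapped between genotypes for each of its 3 genes among the 40. Its kinase gene Aurkb was at 99.8 and 123 TPM in Setd2f/f, against 106 and 110 TPM in Setd2D/D. Birc5, which encodes survivin, was at 118 and 127 TPM against 102 and 130 TPM. The scaffold gene Incenp was at 91.2 and 93.0 TPM against 105 and 89.1 TPM. Log2 changes of the 3 lay between -0.08 and 0.07.

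Spindle checkpoint genes likewise overlapped, for 5 of 5. Ttk, the kinase at the top of the checkpoint, was at 27.2 and 28.0 TPM in Setd2f/f, against 40 and 26.6 TPM in Setd2D/D, so that Setd2D/D replicate 1 stood apart from the other 3 libraries. Bub1 was at 36.8 and 29.0 TPM against 34.0 and 35.6 TPM, and its relative Bub1b, which encodes the checkpoint protein BubR1, at 91.2 and 75.2 TPM against 81.5 and 104 TPM. Bub3, the partner of both, was at 105 and 111 TPM against 119 and 103 TPM. Mad2l1, which encodes the Mad2 inhibitor of Cdc20, was at 96.96 and 86.8 TPM against 86.2 and 88.7 TPM. The target of the checkpoint, the anaphase-promoting complex activator gene Cdc20, was at 92.5 and 81.4 TPM against 111 and 92.8 TPM, just without overlap (log2 change 0.22, SE 0.15). Ube2c, the ubiquitin-conjugating enzyme of that complex, was at 127 and 134 TPM against 111 and 148 TPM, with the controls between the knockout libraries.

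No kinetochore gene of the 6 overlapped between genotypes, and they split into 4 above (16.8% of all genes tested) and 2 below (27.6% of all genes tested). Cenpe, which encodes a kinetochore motor, had the highest log2 change of the 40. It was at 23.8 and 25.0 TPM in Setd2f/f, against 35.2 and 33.9 TPM in Setd2D/D (log2 change 0.49, SE 0.15, limma adjusted p = 0.402). Cenpf, which encodes a large protein of the outer kinetochore, was at 24.1 and 23.4 TPM against 35.3 and 31.1 TPM (log2 change 0.46, SE 0.16, limma adjusted p = 0.423). Cenpa, the histone H3 variant that marks centromeres, was at 132 and 142 TPM against 164 and 175 TPM (log2 change 0.30, SE 0.10, limma adjusted p = 0.423). For these genes the genotypes were apart by more than the replicates of either.

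The NDC80 complex is the microtubule-binding part of the kinetochore. Of its subunit genes, 1 lay above (16.8% of all genes tested) and 3 below (27.6% of all genes tested), with Spc24 counted. Ndc80 was at 38.8 and 34.5 TPM in Setd2f/f, against 42.2 and 40 TPM in Setd2D/D (log2 change 0.16, SE 0.15). Nuf2 was at 73.96 and 60.6 TPM against 58.7 and 56.3 TPM (log2 change -0.22, SE 0.15). Spc25 was at 60.5 and 67.3 TPM against 37.7 and 60.3 TPM, the lowest log2 change of the 40 at -0.41 (SE 0.25, limma adjusted p = 0.576). The fourth subunit gene, Spc24, which is not among the 40, was at 59.3 and 54.3 TPM against 46.7 and 43.5 TPM (log2 change -0.33, SE 0.13). The Spc25 value rested on Setd2D/D replicate 1: it was -0.08 without that library and -0.75 without Setd2D/D replicate 2. Ndc80 also has a transcribed copy, 2700099C18Rik, that matches it at 95.1% over 303 bases and was at 26.3 and 32.3 TPM against 24.7 and 29.4 TPM, so the split of reads between them is uncertain.

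Among the 7 kinesins, 3 lay above (16.8% of all genes tested), 1 below (27.6% of all genes tested) and 3 overlapped. Kif20a, the motor that carries the passenger complex to the central spindle, was at 46.6 and 46.3 TPM in Setd2f/f, against 67.3 and 59.7 TPM in Setd2D/D (log2 change 0.44, SE 0.13, limma adjusted p = 0.397). In the authors' deposited table its log2 fold change was 0.50 with an FDR of 0.0102. Kif2c, a motor that takes microtubules apart at centromeres, was at 29.1 and 31.5 TPM against 38.9 and 41.6 TPM (log2 change 0.40, SE 0.15, limma adjusted p = 0.434). Kif23, which encodes a subunit of centralspindlin in the midzone, was at 62.6 and 53.4 TPM against 72.7 and 65.1 TPM (log2 change 0.25, SE 0.14).

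Kif4, a chromosome-borne kinesin on the X chromosome, was at 22.9 and 24.5 TPM in Setd2f/f, against 18.3 and 20.5 TPM in Setd2D/D, with both knockout libraries below (log2 change -0.28, SE 0.17). Kif11, the motor that pushes spindle poles apart, was within 90.1 to 93.1 TPM in all 4 libraries. Its helper in that task, Kif15, was at 38.8 and 35.5 TPM against 38.8 and 31.9 TPM. Kif20b, a relative of Kif20a, was at 32.7 and 28.5 TPM against 29.8 and 33.2 TPM. The last 3 showed no separation of the genotypes.

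Other spindle and midzone genes overlapped. Hmmr was at 43.3 and 36.8 TPM in Setd2f/f, against 43.6 and 41.6 TPM in Setd2D/D. Nusap1, which bundles spindle microtubules, was at 107 and 89.4 TPM against 111 and 85.6 TPM. Prc1, which crosslinks the midzone, was at 105 and 98.1 TPM against 103 and 109 TPM. Anln, the anillin gene of the cleavage furrow, was at 22.5 and 21.1 TPM against 21.9 and 22.4 TPM.

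The general proliferation genes of the set did not separate the genotypes. Top2a, the topoisomerase that untangles chromosomes and the gene with the highest level here, was at 344 and 309 TPM in Setd2f/f, against 351 and 328 TPM in Setd2D/D (log2 change 0.06, SE 0.10). Mki67, which encodes the Ki-67 coat of mitotic chromosomes, was at 149.9 and 150.8 TPM against 148.4 and 151.6 TPM. Its log2 change was -0.003 (SE 0.10, limma adjusted p = 0.995), and 0.06 after rescaling by trimmed means of M values.

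**Figure D3:**
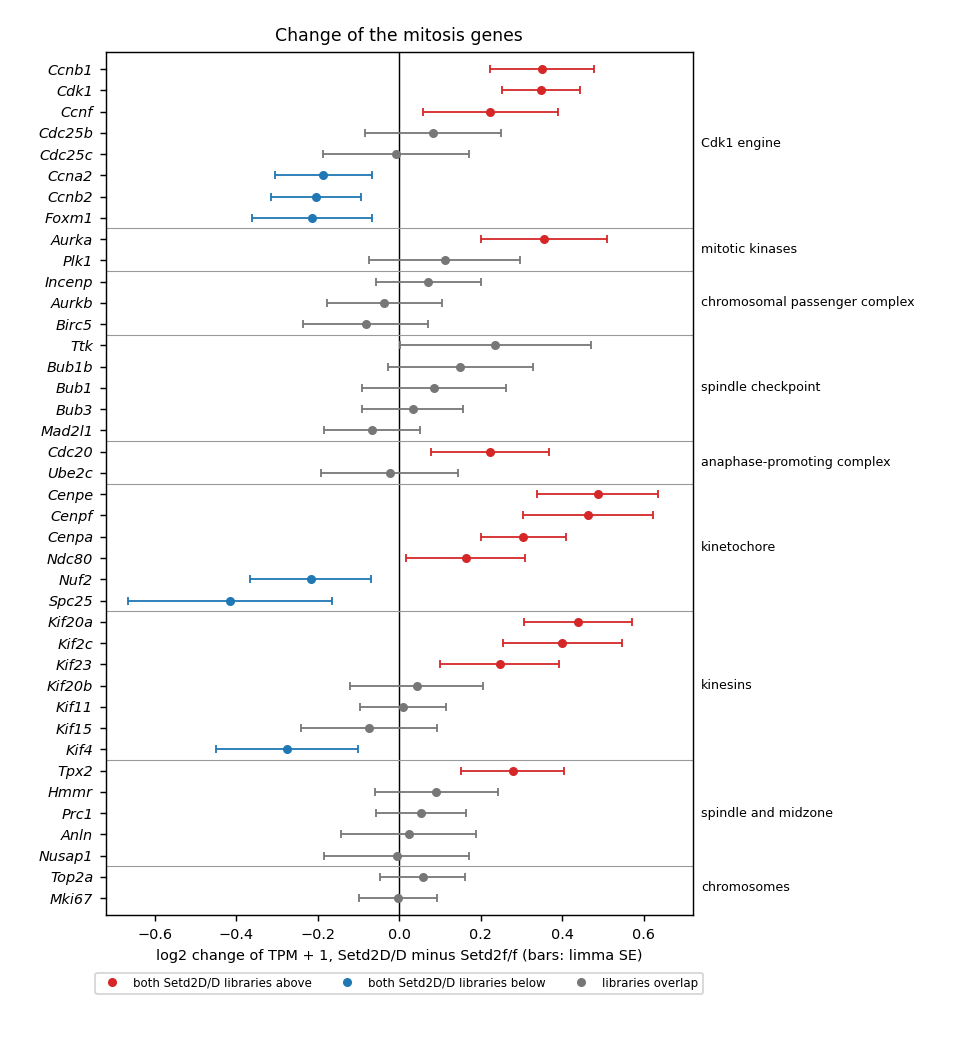
Log2 change of TPM + 1 (x axis, Setd2D/D minus Setd2f/f) of each mitosis gene, with limma standard errors as bars. Red marks the 13 genes with both Setd2D/D libraries above both Setd2f/f libraries, blue the 6 with both below and grey the 21 that overlap, and no gene passes limma at an adjusted p of 0.05.

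Both deposited tables were compared for the 40 genes, since they give the same contrast in different units. Over 9538 genes with a mean TPM of at least 10, the log2 ratio of mean TPM minus the log2 fold change of the authors' deposited table had a median of -0.05, with the 5th and 95th percentiles at -0.25 and 0.25. For 22 of the 40 mitosis genes the difference was within 0.02 of that median. It was more than 0.1 above it for 8 (Cenpf, Ttk, Cenpe, Cdc20, Bub1b, Kif2c, Cdc25b and Cenpa) and more than 0.1 below it for 2 (Foxm1 and Spc25). Cenpf stood farthest out. Its log2 ratio of mean TPM was 0.48, while the authors' deposited table gives it a log2 fold change of -0.08 with an FDR of 0.885. That gap of 0.56 was exceeded by 0.681% of the 9538 genes. Cenpf is a gene of 47481 bases with 6 annotated transcripts of 358 to 11130 bases. What produced the gap was not tested. Foxm1 had a log2 ratio of mean TPM of -0.22, against -0.03 in the authors' deposited table. Cdk1 was at 0.35 against 0.38, Ccnb1 at 0.36 against 0.39 and Aurka at 0.37 against 0.38. Of the 40, the authors' deposited table put 32 at a log2 fold change above 0 (46.7% of the genes tested by limma) and 8 below (53.3%), with a median of 0.08 against -0.03 over those genes.

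**Figure D4:**
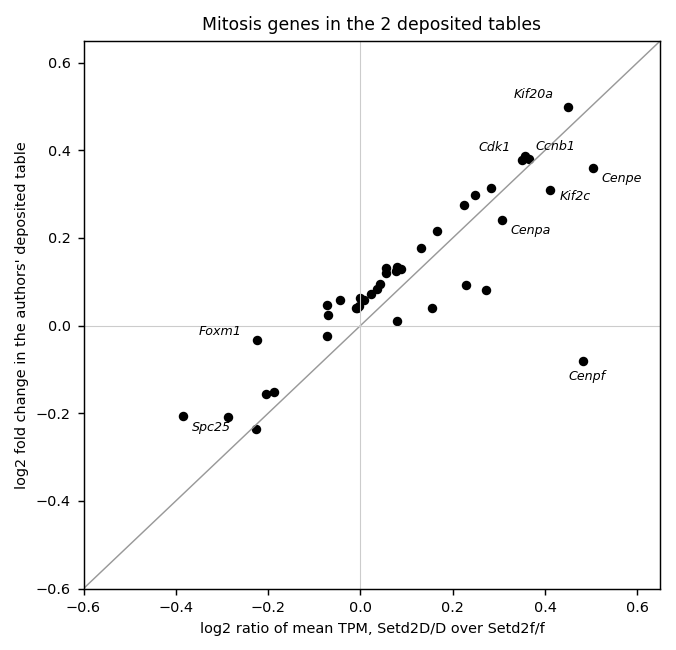
Log2 ratio of mean TPM (x axis) against the log2 fold change of the authors' deposited table (y axis) for the 40 mitosis genes, with the line of equal values. Most points run parallel to the line, and Cenpf lies below it at 0.48 against -0.08.

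Near-identical copies touched few of the genes. At 95% identity over at least 300 bases, transcripts of other annotated genes matched Ccnb1, Mad2l1 and Ndc80. The measured pseudogenes of Ccnb1 and Mad2l1 did not exceed 0.10 TPM in any library. Over the 40 genes the Spearman correlation of the log2 change with genomic length, which runs from 4452 bases (Cdc20) to 101478 bases (Kif4), was 0.06. With the largest exon number of a transcript it was 0.29. The genes share the same 4 libraries, so no p is given.

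A wider list of 111 other genes of mitosis was read in the same libraries. None of the 111 passed limma in either direction, and at an unadjusted p under 0.05, 1 was higher (4.17% of all genes tested) and 10 were lower (6.99% of all genes tested). The 1 was Ube2s, a ubiquitin-conjugating enzyme of the anaphase-promoting complex. By the authors' deposited table, 0 were past an FDR of 0.05 as higher (1.51% of the genes in that table). As lower, 2 of the 111 were past it, Anapc11 and Fam64a (1.64% of the genes in that table). Both Setd2D/D libraries were above for 8 of 111 (7.21%, against 16.8% of all genes tested) and below for 39 (35.1%, against 27.6% of all genes tested). The median log2 change was -0.08, against -0.06 over all genes tested. In the authors' deposited table the median of the 111 was 0.01, with 57 above 0 (46.7% of the genes tested by limma) and 54 below (53.3%). Kntc1, of the checkpoint complex that recruits dynein, was at 39.4 and 40.8 TPM in Setd2f/f, against 21.7 and 25.7 TPM in Setd2D/D (log2 change -0.74, SE 0.16, limma adjusted p = 0.320). The authors' deposited table gives Kntc1 a log2 fold change of -0.25 with an FDR of 0.487. Anapc11, the RING subunit of the anaphase-promoting complex, was at 52.3 and 65.8 TPM against 37.3 and 31.8 TPM (log2 change -0.75, SE 0.18, limma adjusted p = 0.332), and the authors' deposited table gives it an FDR of 0.0344. Fam64a, a mitotic gene now named Pimreg, was at 66.3 and 69.0 TPM against 37.6 and 49.4 TPM, with an FDR of 0.00331 in the authors' deposited table.

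Lin9, a subunit of the MuvB core that binds the CHR, was at 26.4 and 26.7 TPM in Setd2f/f, against 17.1 and 15.3 TPM in Setd2D/D (log2 change -0.69, SE 0.17, limma adjusted p = 0.346), with a log2 fold change of -0.43 in the authors' deposited table. Cenpt, of the inner kinetochore, was at 29.5 and 29.4 TPM against 19.7 and 18.5 TPM, with -0.58 in the authors' deposited table. Racgap1, the partner of Kif23 in centralspindlin, was at 99.4 and 95.3 TPM against 74.9 and 76.3 TPM, opposite in sign to Kif23. The authors' deposited table gives Racgap1 a log2 fold change of -0.09. By role, the medians of the other genes were -0.14 for kinetochore genes (25 genes) and -0.14 for kinesins (6 genes), against 0.23 and 0.04 for the members of the 40 with those roles. In the authors' deposited table the kinetochore medians were closer, at -0.01 for the other genes and 0.07 for those of the 40, and the kinesin medians were -0.16 and 0.09. On the log2(TPM + 1) scale, medians of the other genes and of the 40 were -0.22 and 0.09 for the spindle checkpoint. They were -0.09 and 0.04 for the Cdk1 group, and -0.09 and 0.10 for the anaphase-promoting complex. Spindle and midzone genes had -0.06 and 0.05, and mitotic kinases 0.02 and 0.23. Chromosome genes had 0.02 and 0.03, and the passenger complex -0.003 and -0.04. The difference between the lists was not tested. The 41 DNA replication genes had a median of -0.09, with 0 past limma, 6 with both Setd2D/D libraries above (14.6%, against 16.8% of all genes tested) and 14 with both below (34.1%, against 27.6%).

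**Figure D5:**
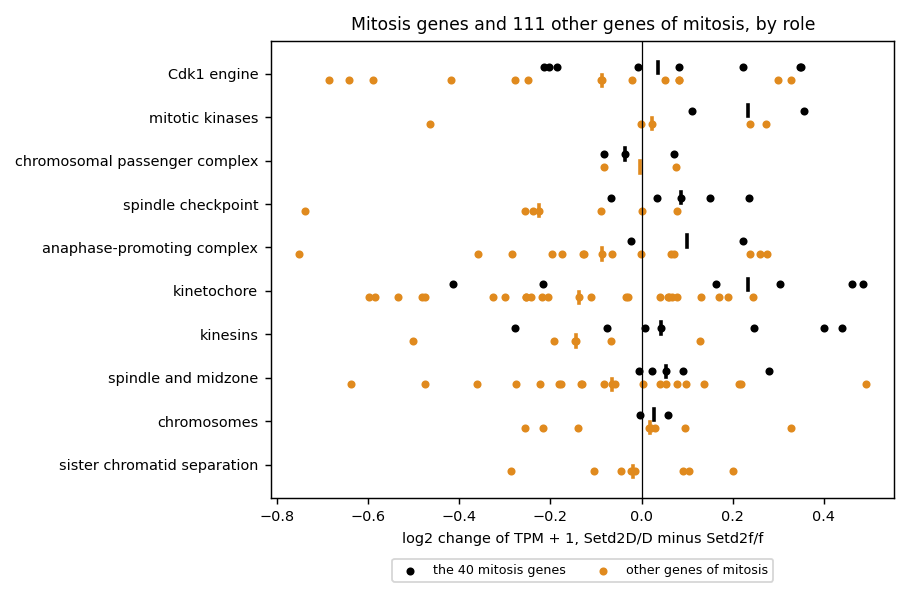
Log2 change of TPM + 1 (x axis, Setd2D/D minus Setd2f/f) of the 40 mitosis genes (dark) and of 111 other genes of mitosis (orange) by role, with a short bar at each median. The dark kinetochore points split between -0.41 and 0.49, and the orange kinetochore points have a median of -0.14.

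Markers of more mature cells stood apart between the same libraries, although 0 of them passed limma. Over all genes tested, 16.8% had both Setd2D/D libraries above and 27.6% had both below, and the counts that follow are read beside those shares. Of 14 erythroid markers, 12 passed the filter and all 12 had both Setd2D/D libraries above. Their summed level was 456 to 578 TPM in Setd2f/f and 980 to 1057 TPM in Setd2D/D, with Alas2 at 0 in 1 Setd2D/D library, and the authors' deposited table calls 9 of the 14 as higher. Car2, the most abundant, was at 401 and 228 TPM against 503 and 439 TPM, and Hbb-bt, a beta globin gene whose near-identical copy makes the split of reads uncertain, was at 38.6 and 106 TPM against 220 and 172 TPM. The 12 granulocyte-monocyte markers summed to 2301 to 2759 TPM against 3101 to 4220 TPM, with 5 above (Elane, Mpo, Ly86, Ms4a3 and Ctsg) and 3 below (Csf3r, Ltf and Ngp) without overlap. Mpo was at 815 and 943 TPM against 1427 and 1878 TPM and Prtn3 at 514 and 707 TPM against 586 and 849 TPM. Of 13 lymphoid markers, 0 were above and 6 below, and they summed to 919 to 1254 TPM against 652 to 707 TPM. Among them Dntt was at 668 and 594 TPM against 427 and 408 TPM and Igll1 at 145 and 67.7 TPM against 56.5 and 78.7 TPM, while Cd3e and Cd3g were at 0 in at least 1 library. The 6 megakaryocyte markers summed to 65.2 to 75.2 TPM against 90.5 to 95.1 TPM, with 3 above (Pf4, Vwf and Gp9) and 1 below (Itga2b), and with Gp1bb and Ppbp at 0 in at least 1 library. Itga2b was at 46.2 and 39.0 TPM against 25.8 and 31.9 TPM and Pf4 at 13.3 and 11.2 TPM against 36.7 and 43.2 TPM. Of 11 LSK markers, 1 was above (Kit) and 5 were below without overlap, and they summed to 1984 to 2117 TPM against 1562 to 1695 TPM. Cd34 was at 773 and 747 TPM against 520 and 476 TPM, and Flt3 at 332 and 279 TPM against 276 and 223 TPM. At an FDR of 0.05 the authors' deposited table calls 4 of the granulocyte-monocyte markers higher and 3 lower. It calls 7 lymphoid, 3 LSK and 1 megakaryocyte marker lower, and 0 of those 3 lists higher. Of the genes in that table, 1.51% were called higher and 1.64% lower. The part of these markers in the values of the mitosis genes was not tested.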

How the data were processed

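The authors deposited TPM values for 46517 genes in 4 libraries and, per the file headers, a comparison of the genotypes for 23955 genes that lists the ratio (fold change) and its log2, the mean log2 CPM, the F score and, last, p-value and FDR. Per the submitters' processing notes, cutadapt, RSEM, edgeR and mm10 are named, with no role stated. A comma in a gene name had shifted 5 rows of the first table and 2 of the second, which were joined again. Strandedness of the libraries is not given in the sources used here. TPM has the same total in each library, so read depth is known only in relative terms and no counting interval is given.

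Values were transformed to log2(TPM + 1) in the 14755 genes where 2 or more libraries reached a TPM of 1. They were fitted with limma 3.58.1 in R 4.3.3, with 1 term for genotype, variances moderated along mean abundance, Benjamini-Hochberg adjustment over all genes at 0.05 and 2-sided testing. The procedure was tested on simulated data. Fold changes on this scale understate those of low genes. The genes, lists and the naming rule (all 40 genes, then the 6 other mitosis genes of smallest p, and the 2 most abundant markers per list besides Ly6a and Kit) were chosen with earlier results of these data known. Ube2s and markers named for lack of overlap were picked after their values were seen. Spc24, named as the remaining subunit gene of the NDC80 complex, and Cdc25a, named beside Cdc25b and Cdc25c, also fell outside that rule. Gene models are those of GENCODE M21, which matched 46005 identifiers, promoters are RefSeq's on GRCm38.p6, and copies were searched with BLAST 2.17.0. As alternatives, the pseudocount was set to 0.5 or 0.1, the filter dropped or raised to TPM 5, libraries rescaled by trimmed means of M values or median-of-ratios factors, the trend dropped, replicate number added as a block, and libraries left out in turn.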

Additional observations from a re-analysis of the deposited data

How the results depend on the processing

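Under all 12 alternatives 0 of the 40 mitosis genes and 0 of the 111 other mitosis genes passed limma, with a lowest adjusted p of 0.197 for a member, and 20 of the 40 kept the sign of their log2 change throughout (14 above 0, 6 below). Over all genes limma called 10, but 3 with a pseudocount of 0.1, 19 with no trend, and 0 with no filter, with the replicate block or without any 1 library. At an unadjusted p under 0.05 between 554 and 2928 genes passed. With the replicate block 5 members had an unadjusted limma p under 0.05 and with no trend 2 did, where 7 did in the main setting. Deviations of same-numbered libraries correlated at 0.04 over all genes, which cannot settle whether the numbers mark a pairing. After rescaling by trimmed means of M values or median-of-ratios factors the median log2 change of the 40 was 0.123 in both, that of the other mitosis genes -0.024 in both, and 19 and 20 members lay above without overlap. The shares of all genes tested, 16.8% above and 27.6% below, come from the main setting. No such share is given for rescaled libraries or with a library left out. Counts of genes above or below in those settings therefore cannot be set against a background. Rescaling turned the sign of 5 members, giving Aurkb at 0.022, Cdc25c at 0.048, Mki67 at 0.056, Nusap1 at 0.052, Ube2c at 0.036 with either factor. With 1 library left out, whose lone partner is then assumed to vary like the other pair, the median of the 40 ranged from 0.0080 (without Setd2f/f replicate 2) to 0.13 (without Setd2f/f replicate 1), that of the other mitosis genes from -0.11 to -0.068, genes above from 14 to 22 and genes below from 7 to 12, where comparing fewer libraries itself makes overlap rarer. Without Setd2f/f replicate 2 or Setd2D/D replicate 1 or 2, genes below numbered 11, 12 and 11, and without the other Setd2f/f library or either Setd2D/D library, genes above numbered 22, 20 and 21. No member had an unadjusted p under 0.05 without either Setd2f/f library, 1 did without Setd2D/D replicate 1 and 7 did without Setd2D/D replicate 2. Log2 changes that turned sign with 1 library left out ranged as Cdc25b -0.065 to 0.23, Cdc25c -0.022 to 0.0056, Ube2c -0.23 to 0.19, Incenp -0.047 to 0.19, Birc5 -0.25 to 0.090, Aurkb -0.19 to 0.11, Top2a -0.020 to 0.13, Mki67 -0.018 to 0.012, Kif15 -0.21 to 0.062, Kif20b -0.054 to 0.14, Kif11 -0.012 to 0.029, Plk1 -0.11 to 0.33, Hmmr -0.024 to 0.21, Anln -0.022 to 0.068, Nusap1 -0.19 to 0.18, Ttk -0.050 to 0.52, Bub1b -0.023 to 0.32, Mad2l1 -0.15 to 0.012, Bub1 -0.082 to 0.25, Bub3 -0.068 to 0.13. The cause of these shifts was not tested. Relative depth is known, but counts are not, which limits what can be said of small differences.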

Other observations

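Ratios between genes within a library do not depend on how libraries are scaled. The gene pairs here were chosen after their values were seen, so the ratios are a description. The ratio of Ccnb1 to Ccna2 TPM was 0.853 and 0.867 in Setd2f/f and 1.29 and 1.22 in Setd2D/D. That of Ccnb1 to Ccnb2 was 1.21 and 1.10 against 1.90 and 1.52. Cdk1 to Mki67 stood at 1.29 and 1.34 against 1.74 and 1.61. Cenpa to Spc25 was at 2.18 and 2.11 against 4.36 and 2.90, and Kif20a to Kif4 at 2.03 and 1.89 against 3.68 and 2.91. In each of these 5 pairs both knockout libraries were above both controls. This was fixed beforehand by the levels. For Cdk1 to Mki67, Cdk1 lay above without overlap while Mki67 stayed within 148.4 to 151.6 TPM in every library. For every other pair the first gene lay above and the second below without overlap.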
